A study of Mus musculus with 12 samples.

Results

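Latexin (Lxn) and retinoic acid receptor responder 1 (Rarres1) are neighbouring genes on mouse chromosome 3, and their expression was followed during long-term culture of mouse osteosarcoma cells. Of 39429 probes on the arrays, 2 carried an accession of either gene, 1 for each, so that 2 of 20144 genes are described. Lxn was picked because its signal was lost with passage in both cell lines, so its passage differences are given as a description without a test. Rarres1 was included as its homolog.

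Dunn cells come from a mouse osteosarcoma and metastasize little, whereas LM8 cells, selected from them in animals, are metastatic. No transgene, deletion or drug distinguished the groups, which were Dunn at passage 25 (early) and 86 (late) and LM8 at passage 24 (early) and 91 (late). Each group had 3 arrays from separate RNA extracts, and the paper does not state whether these came from separate cultures. All cells were grown in the same medium with fetal calf serum and were harvested below full confluence, and each line is represented by its own culture history, so that passage and any other difference between the frozen stocks cannot be told apart. The arrays were single-colour Agilent mouse arrays on 3 slides. Every slide carried 1 array of each group, with a group always in the same place. The replicate number is therefore that of the slide, and effects of place and group cannot be told apart.

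Latexin is the only known mammalian protein inhibitor of A-type and B-type metallocarboxypeptidases, enzymes that remove amino acids from the end of a peptide chain, and its fold resembles that of the cystatins, which inhibit cysteine proteases. It is known for limiting the number of blood stem cells in mice. Rarres1, a membrane protein also called TIG1, shares this fold, was found as a gene induced by retinoids, and is known to bind the cytosolic carboxypeptidase Agbl2, which acts on tubulin tails. Both genes are known to be silenced in several kinds of tumour with methylation of their promoters. Methylation was not measured on these arrays.

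The sequences before the annotated starts are shown because such silencing is known to act at CG sites, which are in capitals. They are the 250 bases upstream of each start, read 5′ to 3′ on the minus strand, from RefSeq (build GRCm38.p6), at chr3:67463908-67464157 for Lxn and chr3:67515524-67515773 for Rarres1.
Lxn: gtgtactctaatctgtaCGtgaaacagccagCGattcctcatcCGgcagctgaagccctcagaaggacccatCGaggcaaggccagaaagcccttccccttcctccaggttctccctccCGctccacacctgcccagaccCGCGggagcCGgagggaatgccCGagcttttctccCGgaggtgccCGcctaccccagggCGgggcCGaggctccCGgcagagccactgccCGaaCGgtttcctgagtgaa
Rarres1: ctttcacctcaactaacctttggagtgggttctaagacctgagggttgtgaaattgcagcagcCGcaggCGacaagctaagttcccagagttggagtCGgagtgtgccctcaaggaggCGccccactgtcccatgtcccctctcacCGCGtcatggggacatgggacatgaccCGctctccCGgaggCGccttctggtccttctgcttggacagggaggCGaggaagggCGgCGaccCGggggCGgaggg
The Lxn sequence held 16 CG sites at a GC content of 64.4%, and the Rarres1 sequence held 14 at 62.4%. Among 32851 promoter sequences of the same length the median was 6 CG sites, and 25.4% had at least as many as Lxn and 29.4% at least as many as Rarres1. Both sequences were therefore in the CG-richer part of all promoters. The GC box letters GGGCGG, searched on both strands, occurred 1 time before Lxn and 2 times before Rarres1, and 32.7% of all promoters held them. Neither sequence held the TATA box letters TATAAA (12.4% of promoters) or the retinoic acid receptor letters AGGTCA (14.0%). Only these exact letters were searched, so that variants of the sites were not counted.

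Lxn was bright on every early array and not well above background on any late array, in both lines. The processed signal, a spot's fluorescence intensity after the scanner software had subtracted background, was 822, 921 and 664 on the early Dunn arrays. On the late Dunn arrays it was 23.7, 3.78 and 3.80. The early and late Dunn arrays did not overlap, and the first late array lay above the other two. In LM8 cells the Lxn signal was 2416, 3235 and 3174 on the early arrays. It was 4.09, 3.89 and 3.79 on the late arrays. The late LM8 arrays lay close together and far below all early arrays. The scanner software called Lxn well above background on 3 of 3 early arrays and 0 of 3 late arrays of each line.

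To compare arrays of different overall brightness, each log2 signal was expressed relative to the 75th percentile of its array. On this scale Lxn averaged 0.97 ± 0.32 (SD, n = 3) in early Dunn cells and -6.83 ± 1.60 (SD, n = 3) in late Dunn cells. In LM8 cells it averaged 1.38 ± 0.07 (SD, n = 3) early and -8.53 ± 0.39 (SD, n = 3) late. The late means are those of spots not well above background and give only an upper bound of the Lxn level. The measured difference of late minus early was -7.80 in Dunn cells and -9.90 in LM8 cells on the log2 scale. It was -6.09, -8.60 and -8.70 on the 3 slides for Dunn and -9.59, -10.23 and -9.89 for LM8, so that each slide gave a lower late signal. Each late array was then set to its lowest signal well above background. In processed signal Lxn was so at least 99.0-fold lower in late Dunn cells and at least 299.4-fold lower in late LM8 cells. In late Dunn cells the first array decided much of this bound, which became at least 155-fold without it. Leaving out other arrays gave bounds down to at least 75.5-fold. These bounds hold for the processed signal only. With another background correction (normexp, offset 50) the fall was smaller, at -3.62 in Dunn and -5.25 in LM8 cells on the log2 scale.

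The first late Dunn array was also the only late array on which the Lxn spot exceeded its background by the software's test of positive signal. Its spot median was 114 against a local background of 30. On the other late arrays of both lines the spot median ran from 32 to 38.5 against a local background of 22 to 23. The threshold for a call well above background was itself highest on the Dunn arrays of that slide, with a lowest accepted signal of 36.4 on the late and 32.3 on the early array, against 9.03 to 16.7 on the other arrays. The Lxn signal of the first late Dunn array was 0.649 times the lowest accepted signal there, and that of the other late arrays was 0.303 to 0.397 times theirs.

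**Figure D1:**
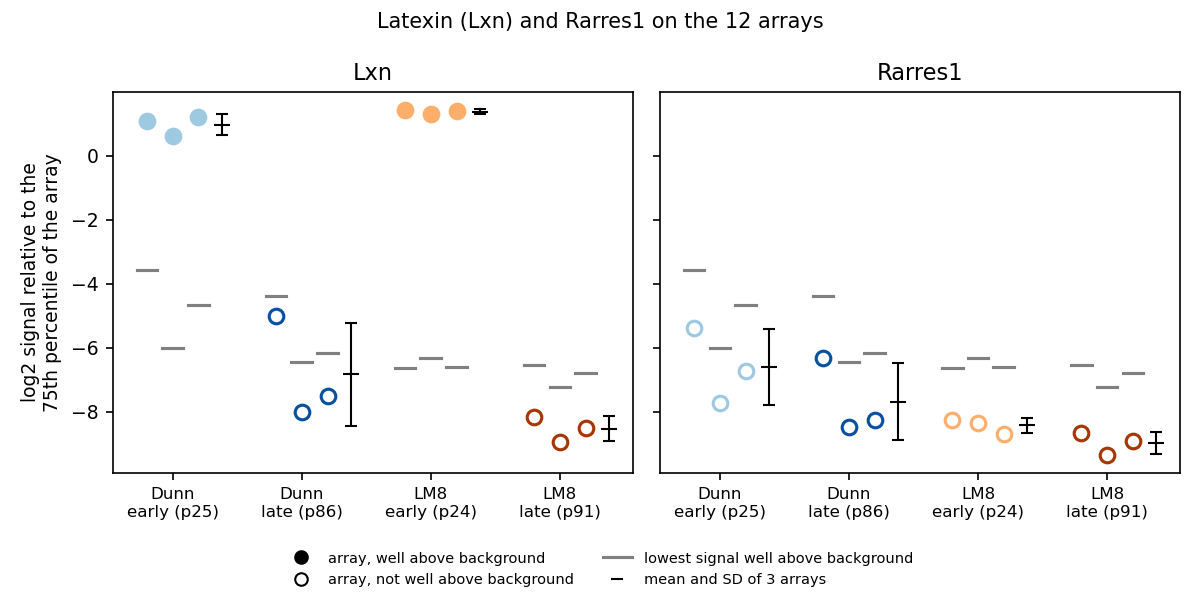
Signal of Lxn (left) and Rarres1 (right) on each of the 12 arrays, as log2 relative to the 75th percentile of the array, by group (passage after p). Points are arrays in the order of the replicate number, filled where the probe was well above background, grey lines give the lowest signal well above background on that array, and the black marks give the mean and SD of 3 arrays. Lxn was above the grey lines on all early arrays and below them on all late arrays, and Rarres1 was below them on all 12.

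The lines were next compared at early passage, where Lxn was measured on all 6 arrays. Lxn was 0.41 higher in LM8 than in Dunn on the log2 scale (95% confidence interval -0.33 to 1.14), with an adjusted p of 0.331 (limma, Benjamini-Hochberg adjustment over all probes). The 3 LM8 arrays lay above the 3 Dunn arrays, by 0.35, 0.69 and 0.19 on the 3 slides. The median of all probes in this comparison was -0.85. The 75th percentile of the signal was 287 to 603 on the early Dunn arrays and 893 to 1316 on the early LM8 arrays. Without scaling between arrays, the difference of Lxn was 1.88 with an adjusted p of 0.0297 (limma). Whether the early lines differed in Lxn therefore depended on the scaling. At late passage Lxn was not well above background in either line, and no fold is given.

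Rarres1 was not well above background on any of the 12 arrays. Its processed signal was 9.34, 2.87 and 2.72 in early Dunn cells and 9.58, 2.68 and 2.26 in late Dunn cells. It was 2.94, 4.04 and 2.95 in early LM8 cells and 2.86, 2.90 and 2.84 in late LM8 cells. The higher values were those of the Dunn arrays on the first slide, whose local background at this spot was 84 and 38.5 against 23 to 34 on the other arrays. Relative to the lowest signal accepted as well above background on the same array, the Rarres1 signal was 0.225 to 0.326. This span was narrow across all groups.

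Rarres1 did not pass the threshold in any of the comparisons. The scaled signal differed by -1.07 between late and early Dunn cells (adjusted p = 0.782, limma) and by -0.56 between late and early LM8 cells (adjusted p = 0.297, limma). Between LM8 and Dunn it differed by -1.82 at early passage (adjusted p = 0.0776, limma) and by -1.30 at late passage (adjusted p = 0.279, limma). The passage change differed between the lines by 0.52 (adjusted p = 1.00, limma, interaction over all 12 arrays). For all genes, the share that passed an adjusted p under 0.05 was 0.00497% in late versus early Dunn cells, 2.82% in late versus early LM8 cells, 4.55% and 3.83% between the lines at early and late passage, and 0.606% for the interaction. Before adjustment, limma gave a p of 0.0196 for the early comparison of the lines and above 0.05 for the others. By the methods' t-test after adjustment, Rarres1 passed in none of the comparisons of groups. The size of these differences was that of other dim probes, since the 9910 probes that were well above background on no array had medians of -0.94 and -0.49 for the passage comparisons and -1.77 and -1.34 for the comparisons of the lines. Rarres1 fell within the span from the 5th to the 95th percentile of these probes in each of these comparisons, and no fold of Rarres1 is given. The early comparison of the lines passed the threshold without the second early Dunn array (-2.38, adjusted p = 0.0109, limma), and also with the normexp background correction (adjusted p = 0.00815) and with a floor under dim signals (adjusted p = 0.0469).

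The genes around the pair were examined next, from the 5 nearest genes with a probe on each side. In the order of the chromosome they were Ptx3, Shox2, Rsrc1, Mlf1 and Gfm1 before Lxn, and Mfsd1, Iqcj, Schip1, Il12a and 1110032F04Rik after Rarres1. The annotated span of Gfm1, a mitochondrial translation elongation factor, encloses Lxn. None of these 10 neighbours passed an adjusted p under 0.05 with passage in either line (limma). Of all genes, 0.00497% passed in Dunn and 2.82% in LM8 cells, so that a count of 0 among 10 genes is near the background. At an unadjusted p under 0.05, 1 passed in Dunn cells (6.81% of all genes) and 2 in LM8 cells (15.9% of all genes), and by the methods' t-test after adjustment 0 passed in each. The range was -2.38 (Iqcj, well above background on 1 of 6 arrays) to 1.67 (Shox2) in Dunn cells and -1.79 (Schip1, adjusted p = 0.111, limma) to 0.58 (Shox2) in LM8 cells, beside -7.80 and -9.90 for Lxn. Schip1 was well above background on 3 of 3 early and 0 of 3 late LM8 arrays, with differences of -1.18, -1.94 and -2.25 on the 3 slides. In processed signal Schip1 was at least 2.37-fold lower against the lowest accepted signal. In Dunn cells it was well above background on 0 of 3 early and 1 of 3 late arrays, and Shox2 on 1 of 3 early and 3 of 3 late arrays.

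Ptx3, Rsrc1, Mlf1 and Gfm1 before Lxn and Mfsd1 after Rarres1 were measured in both lines at both passages. Late minus early, Ptx3 differed by -0.0007, -0.82 and -0.08 on the 3 slides in Dunn cells and by -0.95, -0.69 and -0.89 in LM8 cells. Rsrc1 differed by 0.29 and 0.33 on the first and second slides in Dunn cells and by -0.02, -0.17 and -0.19 in LM8 cells. The scaled signal of Mlf1, a myeloid leukaemia factor that shuttles between nucleus and cytoplasm, was -0.60, -0.69 and -1.15 in early Dunn cells and -0.39, -0.76 and -1.10 in late Dunn cells. It was 1.99, 1.38 and 1.11 in early LM8 cells and 1.70, 1.58 and 1.30 in late LM8 cells. Mlf1 thus overlapped between passages and not between lines. Its passage differences were 0.06 in Dunn cells and 0.04 in LM8 cells, and these changed sign when single arrays were left out. LM8 cells had 2.31 more on the log2 scale than Dunn cells at early passage (adjusted p = 0.0238, limma) and 2.28 more at late passage (adjusted p = 0.0173, limma). With the slide as a block the adjusted p was 0.0718 and 0.0942 (limma), and leaving out single arrays ended the early call without any of the LM8 arrays or the third Dunn array (adjusted p up to 0.120) and the late call without any array but the first Dunn array (adjusted p up to 0.132).

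Gfm1 was flagged as an outlier spot on the second Dunn array of each passage, which left 2 Dunn arrays per group. Its scaled signal was 0.73 and 1.9995 on the early Dunn arrays and 0.80 and 4.03 on the late ones. It was 2.81, 3.67 and 3.38 in early LM8 cells and 3.41, 3.36 and 3.52 in late LM8 cells. The passage difference was 1.04 in Dunn cells (adjusted p = 0.883, limma) and 0.14 in LM8 cells (adjusted p = 0.772, limma), so that the gene whose span encloses Lxn stayed well above background on the late arrays that measured it. Without the third late Dunn array the Dunn value was -0.57. Mfsd1, a lysosomal transporter next to Rarres1, was well above background on all late arrays, with passage differences of -0.31 (adjusted p = 0.866, limma) and -0.36 (adjusted p = 0.365, limma).

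**Figure D2:**
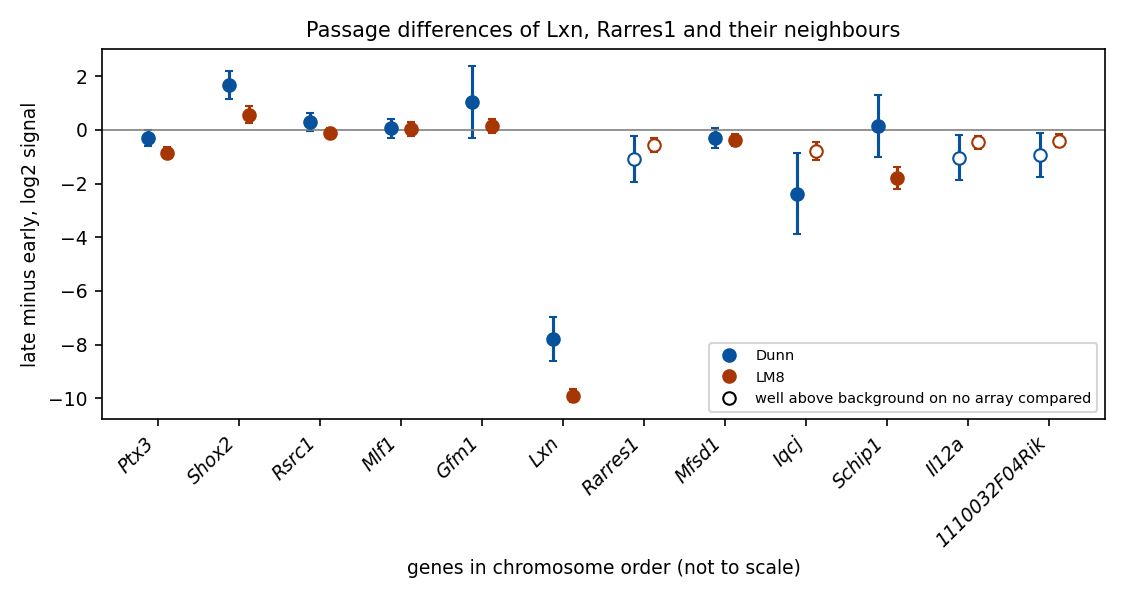
Late minus early difference of the log2 signal for Lxn, Rarres1 and the 10 nearest genes with a probe, in chromosome order and not to scale, for Dunn (blue) and LM8 (orange). Bars are standard errors of the limma fit, and open symbols mark genes well above background on none of the 6 arrays compared. Lxn lies at -7.80 and -9.90, and the neighbours lie between -2.38 and 1.67.

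The genes whose pattern over the 12 arrays was most like that of Lxn were picked by Pearson's correlation of the scaled log2 signals among 11293 genes that were well above background on all arrays of at least 1 group. They were Apol9b (r = 0.975, n = 12 arrays), Oas1c (r = 0.973), Cideb (r = 0.971), Apol9a (r = 0.969) and Sectm1a (r = 0.960), and 27 genes in all had an r over 0.9. They are a description over arrays of which those of a group share line and passage. Apol9a and Apol9b belong to the apolipoprotein L family and are nearly identical in sequence, so that their probes may read the same transcripts. Oas1c is a member of the oligoadenylate synthetase family, Cideb is a protein of lipid droplets and Sectm1a is a membrane protein of the immune system.

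In contrast to Lxn, these 5 genes remained well above background on all 12 arrays. The late minus early difference was -2.94 in Dunn and -3.96 in LM8 cells for Apol9b. It was -2.39 and -3.42 for Apol9a, and -2.47 and -2.15 for Sectm1a. The differences were smaller for Oas1c, at -1.58 and -2.68, and for Cideb, at -1.38 and -1.94. Since these genes were selected by their likeness to a gene picked for its fall, no test is given. A second probe of Cideb differed by -0.93 and -2.15, and a second probe of Apol9a by -1.15 and -3.77. With signals below background set to the lowest signal accepted on the array, Apol9b, Cideb, Apol9a and Oas1c held ranks 1, 2, 3 and 4, and Sectm1a held rank 6.

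**Figure D3:**
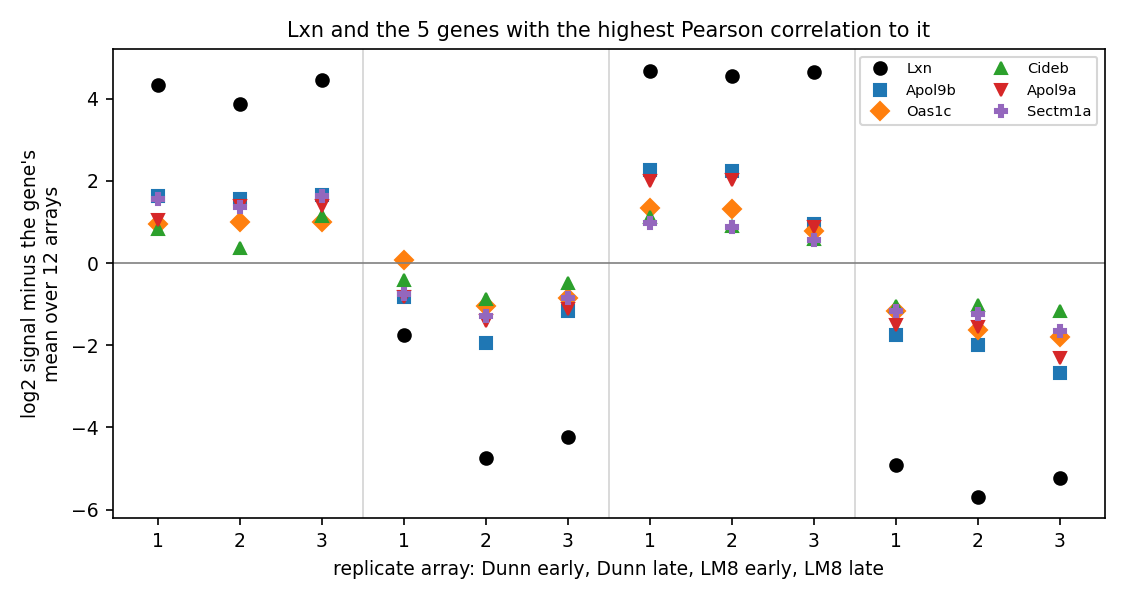
Log2 signal of Lxn and of the 5 genes most like it, each as the difference from its own mean over the 12 arrays. Arrays are ordered by group (early Dunn, late Dunn, early LM8, late LM8) and replicate, and vertical lines separate the groups. All 6 genes are above their mean on the early arrays and, except Oas1c on the first late Dunn array, below it on the late arrays.

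Lists of genes linked to the known roles of the pair were then followed, with 65 of 66 genes measured in 6 lists. These were the A-type and B-type carboxypeptidases that latexin inhibits, the N-type and E-type carboxypeptidases, the cystatin superfamily, the enzymes of tubulin detyrosination and its reversal, the retinoid pathway, and Rps3 and Thbs1, which are known to be linked to latexin in blood stem cells. Of the 65, 36 were well above background on all arrays of at least 1 group and 17 on no array. None of the 65 passed an adjusted p under 0.05 in late versus early Dunn cells (limma), where only 0.00497% of all genes passed. At an unadjusted p under 0.05, 9 passed there, against 6.81% of all genes, and 0 passed the methods' t-test after adjustment. Over 2-fold at an unadjusted p under 0.05 were 8 of them (12.3%), against 4.86% of all genes. In late versus early LM8 cells 3 of the 65 passed, all lower (4.62%, against 2.82% of all genes, or 1.82% that were lower). Between LM8 and Dunn, 8 passed at early passage (2 higher and 6 lower in LM8, 12.3% against 4.55% of all genes, of which 1.33% were higher and 3.22% lower) and 6 at late passage (2 higher and 4 lower, 9.23% against 3.83%, of which 1.25% were higher and 2.59% lower). With the slide as a block these counts were 1 in LM8 with passage, 5 at early passage and 1 at late passage. The counts over all genes also fell with the block, from 569 to 335, from 916 to 254 and from 772 to 78. More of the listed genes thus passed between the lines than with passage, and the same order held over all genes. Of these, 4.55% and 3.83% passed between the lines, against 0.00497% and 2.82% with passage. Over all probes the median difference between the lines was -0.85 at early and -0.66 at late passage, and the differences named are not corrected for it.

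Most of the targets of latexin were not well above background throughout any group. Of the 8 measured A-type and B-type carboxypeptidases, 1 was well above background on all 12 arrays, 1 further on all arrays of a group and 2 on none. The median passage difference over the list was -0.95 in Dunn cells and 0.09 in LM8 cells, beside -0.33 and -0.20 over all probes. Dim probes, never called well above background, had medians of -0.94 in Dunn cells and -0.49 in LM8 cells. The Dunn median of this mostly dim list was thus close to that of dim probes, and the LM8 median was not. A fall of these genes in Dunn cells cannot be read from it.

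Cpa1, a digestive carboxypeptidase of the pancreas, was well above background on all Dunn arrays and on 1 of 3 LM8 arrays at each passage. It was lower in LM8 at early passage (adjusted p = 0.0226, limma), where the difference rests on spots not well above background and was -5.19 as measured, -3.82 with a floor under dim signals and -2.46 with normexp. The call was lost without the first or second LM8 array or the third Dunn array (adjusted p up to 0.116). Cpa6, which acts outside the cell, passed at late passage, where it was well above background on 2 of 3 Dunn arrays and 0 of 3 LM8 arrays. It was lower in LM8 (adjusted p = 0.00840, limma), with no fold given since the Dunn group was measured in part, and the call was lost without any LM8 array (adjusted p up to 0.0734) and with the slide as a block (adjusted p = 0.0624).

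Among the 8 N-type and E-type carboxypeptidases, Cpe was the gene that passed between the lines, and the median passage difference over the list was -0.04 in Dunn and 0.05 in LM8 cells. Cpe processes prohormones and neuropeptides and is not among the enzymes that latexin is known for inhibiting. Its scaled signal was 1.24 and -0.09 on the early Dunn arrays that measured it, the third being flagged as an outlier, and -2.67, -3.51 and -2.99 on the late Dunn arrays. In LM8 cells it was 3.97, 4.55 and 4.18 early and 4.04, 4.00 and 4.57 late. Cpe was thus high in all LM8 arrays and lowest in late Dunn cells. It was 7.26 ± 0.32 (SE) higher in LM8 at late passage (adjusted p = 9.32e-04, limma) and 3.66 ± 0.51 (SE) higher at early passage (adjusted p = 0.0241, limma). The late call held with each array left out and with the block. The early call had an adjusted p of 0.0840 with the block and was lost without any LM8 array (adjusted p up to 0.134). Leaving out the third Dunn array, which held no Cpe value, kept the early difference at 3.66, with an adjusted p of 0.0548 (limma). With passage Cpe differed by -3.63 in Dunn cells (adjusted p = 0.407, limma) and by -0.03 in LM8 cells (adjusted p = 0.951, limma), and the Dunn difference passed in a fit over all 12 arrays (adjusted p = 0.00649) and over probes well above background (adjusted p = 0.0399). Other probes of Cpe, of which there were 2, gave -2.78 and -3.57 in Dunn cells and -0.61 and -0.23 in LM8 cells.

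Of the 17 genes of the cystatin superfamily, 9 were well above background on no array and 4 on all 12. No member passed with passage in either line. The median passage difference was -0.65 in Dunn cells and -0.21 in LM8 cells, beside -0.33 and -0.20 over all probes. Dim probes, never called well above background, had medians of -0.94 and -0.49. The Dunn median of this list thus lay between that of all probes and that of dim probes. Cst6, a secreted inhibitor of cysteine proteases known to be silenced in several tumours, had a scaled signal of -1.57, -1.78 and -1.37 in early Dunn cells and -3.67, -4.18 and -3.80 in late Dunn cells, where it was well above background on 2 of 3 arrays. In LM8 cells it was -4.31, -4.70 and -4.92 early and -5.11, -5.33 and -5.41 late. Early Dunn arrays stood above all others. Cst6 differed between LM8 and Dunn by -3.07 ± 0.32 (SE) at early passage (adjusted p = 0.00513, limma), which held with each array left out (adjusted p up to 0.0457), and its passage difference in Dunn cells was -2.31 (adjusted p = 0.239, limma). Kng1, a kininogen, differed by -2.03 between LM8 and Dunn at early passage (adjusted p = 0.0246, limma). Ahsg, the serum glycoprotein fetuin-A, differed by -2.93 at late passage (adjusted p = 0.0212, limma), where it was well above background on 3 of 3 Dunn and 2 of 3 LM8 arrays. Both calls were lost with the slide as a block (adjusted p = 0.0840 and 0.142) and when single arrays were left out (adjusted p up to 0.133 and 0.111), namely any LM8 array of that passage or the third Dunn array. Without scaling between arrays Kng1 differed by -0.57 (adjusted p = 0.469, limma). A second probe of Kng1 differed between LM8 and Dunn by -1.63 at early passage (adjusted p = 0.0366, limma) and by 1.72 at late passage (adjusted p = 0.0749, limma). With passage it differed by -3.14 in Dunn cells (adjusted p = 0.160, limma), where it was well above background on 2 early arrays and 0 late arrays, and by 0.20 in LM8 cells.

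On the side of Rarres1, Agbl2, its known binding partner, was well above background on no array. Of the 10 genes of tubulin detyrosination, 4 were well above background on all 12 arrays and 2 on none, and none passed with passage (median -0.42 in Dunn and -0.09 in LM8 cells). Vash2, a vasohibin that removes the terminal tyrosine of tubulin, passed between the lines at late passage (adjusted p = 0.0240, limma), where it was well above background on 3 of 3 LM8 and 1 of 3 Dunn arrays. The difference rests on the dim Dunn spots, at 2.23 as measured, 1.47 with a floor under dim signals (adjusted p = 0.199) and 0.16 with normexp (adjusted p = 0.627). This call was lost with the block (adjusted p = 0.102) and without any array but the first late Dunn array (adjusted p up to 0.158).

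The retinoid pathway contained the calls with passage. Of its 20 genes, which comprise receptors, binding proteins, enzymes of retinoic acid synthesis and enzymes of its breakdown, 6 were well above background on all 12 arrays and 3 on none, and the median passage difference was -0.27 in Dunn and -0.37 in LM8 cells. Cyp26a1, which degrades retinoic acid, had a scaled signal of -1.20, -1.41 and -1.20 in early LM8 cells and -4.01, -3.96 and -4.16 in late LM8 cells. The passages did not overlap, and Cyp26a1 fell by 2.77 ± 0.18 (SE) on the log2 scale in LM8 cells (adjusted p = 9.81e-04, limma). The call held with each array left out and with the slide as a block, and was lost in the fit over all 12 arrays (adjusted p = 0.268). In Dunn cells Cyp26a1 was well above background on no array. At early passage Cyp26a1 was higher in LM8 than in Dunn (adjusted p = 0.0138, limma). In processed signal this was by at least 11.2-fold with dim signals set to the lowest accepted signal, a bound that did not hold with normexp. The log2 difference rests on the dim Dunn spots, at 4.82 as measured, 3.48 with that floor and 1.17 with normexp (adjusted p = 0.0208, limma). The call was lost without any LM8 array or the third Dunn array (adjusted p up to 0.0901).

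Cyp26b1, a second enzyme that degrades retinoic acid, stood the other way between the lines. Its scaled signal was 2.11, 2.13 and 3.03 in early and 3.73, 4.06 and 3.95 in late Dunn cells. In LM8 cells it was -1.54, -1.35 and -0.31 early and -1.03, -0.84 and -0.07 late. All Dunn arrays lay above all LM8 arrays. The difference of LM8 and Dunn was -3.49 ± 0.46 (SE) at early passage (adjusted p = 0.0135, limma) and -4.56 ± 0.33 (SE) at late passage (adjusted p = 0.00356, limma). The late call held with each array left out and had an adjusted p of 0.0582 with the block, and the early call was lost without the first or second LM8 array or the third Dunn array (adjusted p up to 0.0831).

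The other calls of the retinoid pathway were weaker. Stra6, a membrane receptor that takes up retinol, differed by -1.21 between late and early LM8 cells (adjusted p = 0.0458, limma). This call was lost with the block (adjusted p = 0.0739) and on leaving out any of the 6 arrays (adjusted p up to 0.173). Dhrs3, which reduces retinal, differed by -1.47 between LM8 and Dunn at early passage (adjusted p = 0.0469, limma). This call was lost with the block (adjusted p = 0.0840), without any array but the second Dunn array (adjusted p up to 0.211), and without scaling, where the difference was -0.0014. Rps3 and Thbs1 passed in none of the 4 comparisons, and the nearest to the threshold was Thbs1 between the lines at early passage (1.93, adjusted p = 0.0776, limma, with 2 of 3 Dunn arrays).

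**Figure D4:**
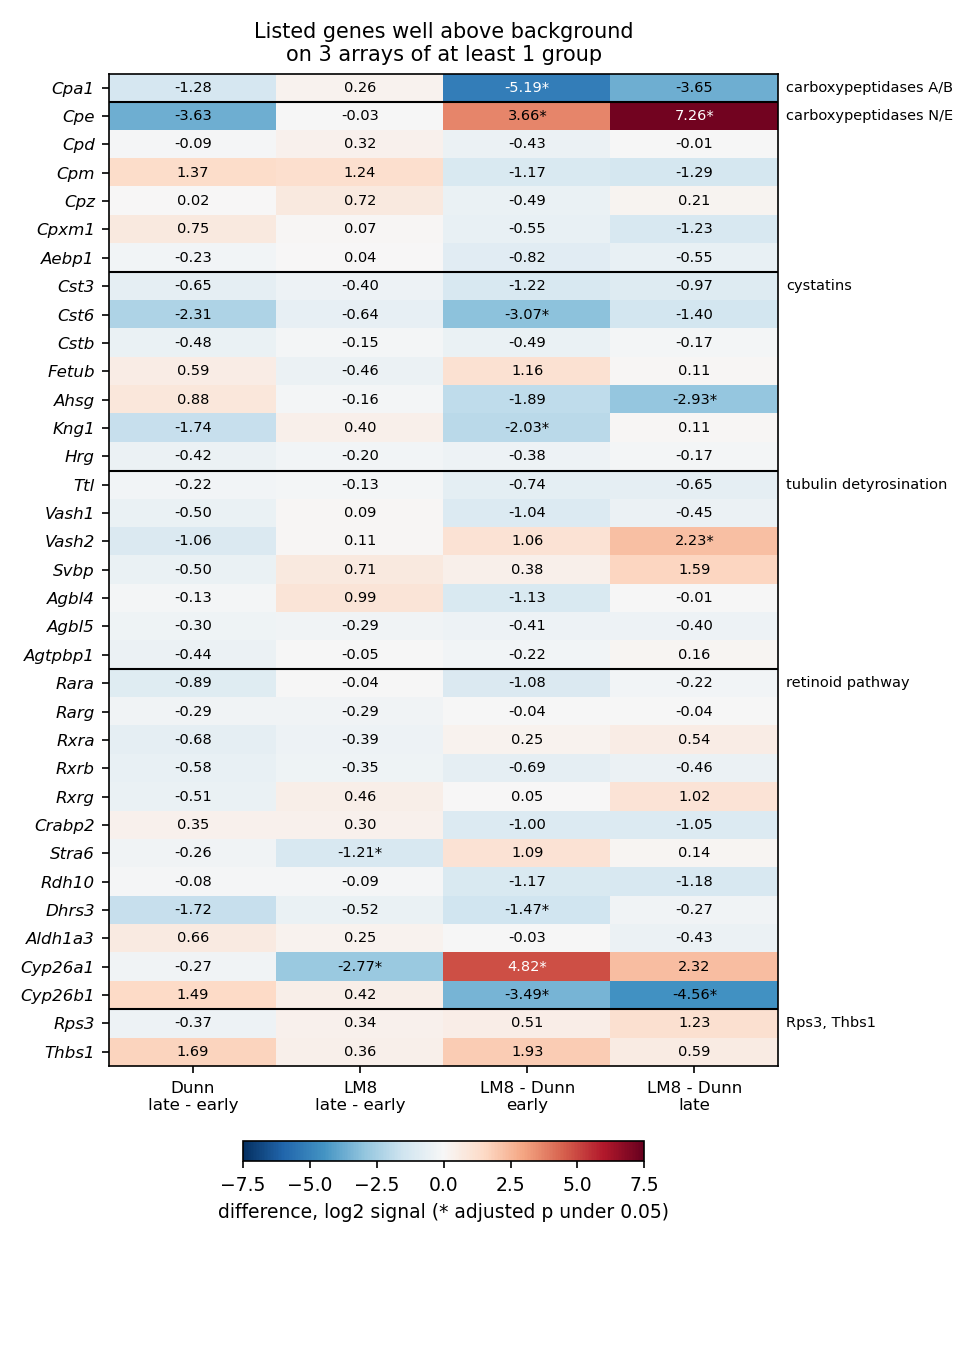
Differences of the log2 signal for the listed genes that were well above background on all 3 arrays of at least 1 group and are reported here, in the 4 comparisons of groups. Colours run from lower (blue) to higher (red) and stars mark an adjusted p under 0.05 (limma). Stars are absent from the Dunn passage column, mark Stra6 and Cyp26a1 in the LM8 passage column, and are most frequent in the columns that compare the lines.

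Markers of cell types were read as a check of the labels. All 7 measured osteoblast markers were well above background in at least 1 whole group, and 0 of them passed in any of the 4 comparisons at an adjusted p under 0.05 (limma). Of 5 measured blood cell markers, Csf1r and Cd3e were well above background on all 12 arrays. Ptprc and Adgre1 were each well above background on 1 of 3 early and 1 of 3 late LM8 arrays and on no Dunn array. Of 4 endothelial markers Kdr was well above background on all 12 arrays, Tek on 1 of 3 late Dunn arrays only and Cdh5 on none. Pecam1 was well above background on 0 of 3 early and 2 of 3 late Dunn arrays and on 2 of 3 early and 3 of 3 late LM8 arrays, and its part in the results was not tested. No epithelial or mast cell marker was well above background in a whole group. The mast cell marker Kit alone passed, between the lines at late passage, where it was well above background on no array of either group. On arrays of cultures, fewer cells that express a gene and less RNA per cell cannot be told apart.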

How the data were processed

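Total RNA of 12 samples was measured on Agilent mouse 4x44k arrays, 3 for each of 4 groups. RNA extraction is given as RNeasy in the labels and as TriReagent in the paper. The authors deposited the output of Agilent Feature Extraction 10.7.3, per the labels, whose processed signal is a background-subtracted intensity without scaling between arrays. A deposited table of all arrays holds the same intensity, rounded, with differences of at most 0.497%. Other deposited columns used are flags (well above background, outliers) and the spot and local background intensities.

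Control spots and outlier-flagged spots (133 to 1483 per array) were left out, 43020 spots were averaged into 39429 probes, and from each log2 signal the 75th percentile of its array was subtracted. Accessions matched 26581 probes (67.4%) to 20144 genes of the RefSeq table of GRCm38.p6, used for names and gene order only. For genes with several probes, the probe of highest mean signal was used. The share of probes well above background was 40.1% to 60.1% per array, and the number of arrays limits the precision. Groups were compared with limma 3.58.1 (R 4.3.3) on the arrays of the groups compared, with Benjamini-Hochberg adjustment over all probes and a threshold of 0.05, and by an interaction over all 12 arrays. The steps were tested on simulated data. Figures were drawn with matplotlib 3.10.9.

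Members and lists were chosen with earlier results of these data known. Named were the members, the 5 nearest genes with a probe on each side, the 5 genes most correlated with Lxn, and list members that passed. Some of the latter are counted in the totals and not reported here by name. The 5 most like Rarres1 were not sought, because it was above background on no array. Of the lists, 1 gene (Cpo) was not in the reference, and Bglap and Cd68 had no matched probe. Alternatives were quantile normalization, normexp (offset 50), a filter on dim probes, the deposited table, a floor under dim signals, 1 fit over all 12 arrays, the slide as a block, the methods' t-test, and each array left out. Normexp used median spot signals, since mean signals were not among the columns. The slide numbers were checked by correlating deviations from group means for the 18 pairs of arrays of the same slide, which gave -0.25 to 0.68 with 12 over 0.1. In the passage comparison of Dunn, 3 of 3 pairs of the same slide were over 0.1. Pairs of arrays of different slides gave -0.63 to 0.43. Deviations from a group mean cancel within the group, so that both sets of pairs depend on each other and the check alone does not settle the pairing.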

Additional observations from a re-analysis of the deposited data

Results flagged for a closer look

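The passage difference of Cpe, a prohormone-processing carboxypeptidase, differed between the lines by an interaction test. The change in LM8 minus the change in Dunn was 3.60 on the log2 scale (adjusted p = 0.0455, limma over 11 measured and 1 flagged array of 12). The call was lost in 10 of 12 fits that left out 1 array each (adjusted p from 0.0226 to 0.153), with normexp (adjusted p = 0.0864), in the unscaled table (adjusted p = 0.101) and with the slide as a block (adjusted p = 0.0699). Among the 10 was the fit without the flagged array, which held no Cpe value, and the difference there stayed at 3.60 (adjusted p = 0.0567, limma).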

How the results depend on the processing

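The fall of Lxn kept its direction in all alternatives. In Dunn cells it was -3.62 with normexp and -6.63 with a floor on dim signals, and in LM8 cells it was -8.86 with quantile normalization, -5.25 with normexp, -9.54 in the unscaled table and -8.23 with the floor. In both lines the fall with normexp was smaller than that with the floor, on which the bounds of the Lxn fold rest. The early difference of Lxn between the lines was 1.88 in the unscaled table. Rarres1 between the early lines passed with normexp (-1.56, adjusted p = 0.00815) and with the floor (-1.76, adjusted p = 0.0469), and ran from -2.38 to -1.20 with single arrays left out. Its interaction was -0.0811 in the unscaled table and ran from -0.10 (without the first early Dunn array) to 1.20 with single arrays left out. The causes were not tested. No other difference of Rarres1 changed its side of the threshold or its direction.

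With the replicate block (the slide, which pairs the arrays), Rarres1 had an adjusted p of 0.207, 0.271, 0.0840 and 0.210 in the 4 comparisons and 0.907 for the interaction, and Lxn 0.417 between the early lines, which changed none of these calls. Cpe with passage in LM8 was 0.0197 with normexp, 0.332 in the unscaled table and -0.22 to 0.12 with single arrays left out. The same fits gave -0.57 to 2.66 and -0.0931 to 0.336 for Gfm1 with passage in Dunn and LM8, -0.60 to 2.63 for Gfm1 between the late lines, and -0.12 to 0.24 and -0.15 to 0.28 for Mlf1 with passage.

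Counts of genes at an adjusted p under 0.05 moved widely. In Dunn with passage (1) they were 61 with quantile normalization, 11 with normexp, 0 with the floor, 166 with the filter on dim probes, 358 in the fit over 12 arrays, 0 with the block, 2 by the t-test and 0 to 27 with arrays left out. In LM8 with passage (569) they were 294 with normexp, 324 in the unscaled table, 291 in the fit over 12 arrays, 335 with the block, 236 by the t-test and 294 to 583 with arrays left out. Between the early lines (916) they were 2161 with quantile normalization, 11919 with normexp, 1990 in the unscaled table, 8971 with the floor, 2789 with the filter, 2735 in the fit over 12 arrays, 254 with the block and 219 to 8580 with arrays left out. Between the late lines (772) they were 1736 with quantile normalization, 502 in the unscaled table, 2759 with the filter, 1611 in the fit over 12 arrays, 78 with the block, 1377 by the t-test and 178 to 1954 with arrays left out. For the interaction (122) they were 264 with quantile normalization, 69 with normexp, 61 in the unscaled table, 305 with the filter and 48 to 236 with arrays left out.

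Over 2-fold at an unadjusted p under 0.05, Dunn with passage (978) had 1519 with quantile normalization, 2222 with normexp, 1662 in the unscaled table, 3087 with the block and 643 to 2800 with arrays left out. LM8 with passage (1468) had 429 with normexp, 911 with the floor, 880 with the filter, 851 in the fit over 12 arrays and 1172 to 2311 with arrays left out. The early lines (7386) had 3481 with quantile normalization, 2689 with the filter, 3880 by the t-test and 3623 to 9813 with arrays left out. The interaction (1067) had 1725 with quantile normalization and 910 to 1914 with arrays left out. A filter on dim probes left no value for Rarres1.

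Of the listed genes, some calls also ended under other settings. By the methods' t-test the adjusted p was 0.0866 for Cpa1, 0.0892 for Cpe, 0.0689 for Cyp26a1, 0.0586 for Cyp26b1 and 0.0554 for Mlf1, all between the early lines. Between the late lines Cpa6 was -2.05 with quantile normalization, -1.13 with normexp and -1.46 with the floor, Ahsg was -1.99, -1.42 and, in the unscaled table, -2.06, and Vash2 was 0.16 with normexp and 1.47 with the floor, none of which passed (Vash2 with quantile normalization had an adjusted p of 0.126). In LM8 with passage Stra6 was -0.85 in the unscaled table, and it did not pass there, in the fit over 12 arrays or by the t-test.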
